A study of Mus musculus with 36 samples.

Results

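The genes described here encode chaperones, folding enzymes, translocation and degradation proteins of the endoplasmic reticulum (ER), together with the regulators Xbp1 and Atf6. They were taken by gene symbol from a list of 36; the list sets no threshold on a measured value, but it was drawn up with earlier results of these data known. Of these 36, 33 were among the 12393 genes with a probe set of their own, and they held 70 of the 22690 probe sets on the array. The symbols Ero1l, Ero1lb and Fkbp10 had no probe set under that name in the platform annotation and were dropped; the newer symbols of the Ero1 oxidases are described at the end and enter no count. Each gene was read on its brightest probe set, and all 33 were among the 7436 genes bright enough to be tested.

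The cells were mouse embryonic fibroblasts of 2 genotypes. PKBa-/- cells lack the protein kinase PKB alpha, which is encoded by Akt1, and wild type cells carry it; per the labels both were grown from 13.5-day embryos of intercrossed heterozygous mice and were used between passages 15 and 20. The labels give times 0, 2, 6, 24 and 48 without a unit, with 4 arrays per genotype at each time except time 2, which had 2. DMEM is the medium of the design text, whereas the protocols also list a medium that induces adipocytes, with dexamethasone, insulin and isobutylmethylxanthine, and the labels do not say which of them the arrays received. They also do not say how many embryos or cultures gave the replicates, so the p-values measure only the spread between these samples, which may be technical. Replicates 1 and 2 of a group, and replicates 3 and 4, resembled each other more than the other pair and were averaged, so that each group entered the test as 2 pair averages (1 at time 2).

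As a check of the labels, the Akt1 signal was 74.3 ± 14.2 in PKBa-/- arrays and 1117 ± 183 in wild type arrays (SD, n = 18 each), with no overlap. All 10 fibroblast markers were above the limit for testing in both genotypes. Their summed signal ran from 66310 to 75930 in PKBa-/- arrays and from 53880 to 67710 in wild type arrays. The genotypes also differed in markers of other cell types. The summed signal of the 6 mesothelial markers on the array was 298.5 to 409.2 in PKBa-/- arrays, none of them above the limit, against 4570 to 7509 in wild type arrays, and that of 5 adipocyte markers was 898.8 to 2037 against 2432 to 5737. Only 2 of these 5 were above the limit, and they went opposite ways: the log2 difference averaged over the times was -1.86 ± 0.12 for Lpl and 0.29 ± 0.10 for Cebpa. In such bulk samples, fewer cells of a type and less RNA per cell cannot be told apart, and the part of these cells in the genotype differences below was not tested.

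Proteins that enter the secretory pathway fold inside the ER. The Hsp70 chaperone BiP, encoded by Hspa5, binds them together with J-domain partners; calnexin and calreticulin hold glycoproteins, protein disulfide isomerases form and shuffle disulfide bonds, and collagen has helpers of its own, such as Hsp47 (Serpinh1). When unfolded protein builds up, the sensors ATF6, IRE1 and PERK start the unfolded protein response: ATF6 and the spliced form of XBP1 act on promoters that carry the ER stress element, a CCAAT box and a CCACG block set a fixed distance apart, whereas PERK acts through translation and ATF4. Fibroblasts make large amounts of collagen and depend on this machinery.

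Since this element links many of these genes to those regulators, the matches that carry it are shown here. The RefSeq promoter table of GRCm38.p6, which covers 250 bases before to 50 bases after each start, held 28 of the 33 genes; Hyou1, Manf, Derl1, Atf6 and Sec61a1 had no entry. The ER stress element was searched as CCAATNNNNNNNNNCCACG on both strands. It was found in 8 of the 28 genes (28.6%), against 0.137% of the 27025 genes in the table. Because the element was chosen for its link to these genes, the contrast is a description and not a test. The matches follow, each 5′ to 3′ on the strand that carries it, with the fixed bases in capitals and the 9 spacer bases in lower case.
Hspa5: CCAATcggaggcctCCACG
Hsp90b1 farther from the start: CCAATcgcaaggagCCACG
Hsp90b1 nearer to the start: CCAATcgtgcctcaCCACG
Calr: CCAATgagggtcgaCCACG
Canx: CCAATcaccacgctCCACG
Pdia6: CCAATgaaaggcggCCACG
Dnajc3: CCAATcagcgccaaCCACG
Creld2: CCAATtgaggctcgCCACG
Syvn1: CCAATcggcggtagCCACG
The Hspa5 match lay at chr2:34772025-34772043, the Hsp90b1 matches at chr10:86705638-86705656 and chr10:86705533-86705551, and the Calr match at chr8:84847075-84847093. Those of Canx, Pdia6, Dnajc3, Creld2 and Syvn1 lay at chr11:50325800-50325818, chr12:17266491-17266509, chr14:118937827-118937845, chr15:88819520-88819538 and chr19:6046532-6046550. All ended before the annotated start, and those of Calr, Creld2 and the nearer one of Hsp90b1 lay on the strand opposite to the gene.

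A related element, ERSE-II, searched as ATTGG and CCACG with 1 base of any kind between them on both strands and added after the data were seen, was found in 2 of the 28 genes (7.14%) against 0.0444% of all genes in the table. These were Herpud1, at chr8:94386377-94386387, and Dnajb11, at chr16:22857852-22857862, where the match lies after the start.
Herpud1: ATTGGgCCACG
Dnajb11: ATTGGcCCACG
The CCACG block alone, which both elements contain, was present in 24 of the 28 genes (85.7%) against 35.5% of all genes. The 250 bases before the start are printed for Hspa5 (chr2:34771840-34772089, plus strand) and Herpud1 (chr8:94386179-94386428, plus strand), with the match in capitals; Hspa5 had its highest group mean at time 6 and Herpud1 at time 0, in both genotypes.
Hspa5 upstream: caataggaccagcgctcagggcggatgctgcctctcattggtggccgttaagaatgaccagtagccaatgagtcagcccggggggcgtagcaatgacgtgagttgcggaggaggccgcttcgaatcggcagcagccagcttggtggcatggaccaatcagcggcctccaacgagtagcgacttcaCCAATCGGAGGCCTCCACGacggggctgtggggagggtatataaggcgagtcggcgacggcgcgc
Herpud1 upstream: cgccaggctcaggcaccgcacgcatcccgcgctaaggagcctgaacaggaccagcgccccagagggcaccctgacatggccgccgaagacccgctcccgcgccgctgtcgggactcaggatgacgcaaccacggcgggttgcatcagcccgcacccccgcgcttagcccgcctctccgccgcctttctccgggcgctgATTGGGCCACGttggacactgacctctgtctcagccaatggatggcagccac
A match is a run of letters and not a measured binding site, and no binding was measured in this study.

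**Figure D1:**
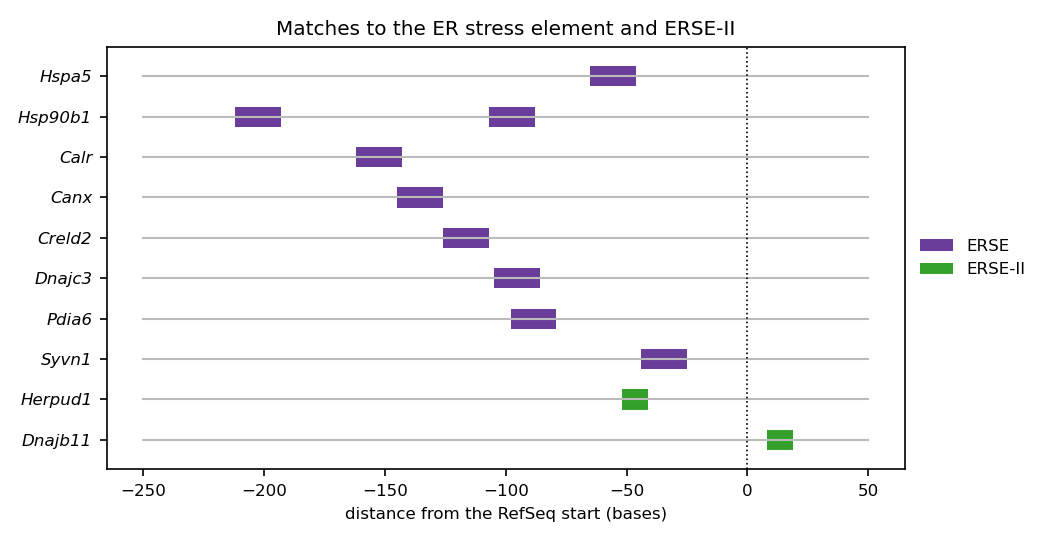
Positions of the matches to the ER stress element (purple) and ERSE-II (green), in bases from the RefSeq start (dotted line at 0), in the promoters of 10 ER folding genes. Grey lines mark the window from 250 bases before to 50 bases after the start; the matches of 9 genes lie before the start, and that of Dnajb11 lies after it.

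The first comparison asked how the ER genes changed between time 0 and time 6. Of the 9 chaperones and BiP partners 3 rose in PKBa-/- cells and 2 in wild type cells, and those that rose in both were Hspa5 and Hyou1. Hspa5, which encodes BiP, rose 1.62-fold in PKBa-/- cells and 1.38-fold in wild type cells, and Hyou1, an Hsp70-like protein that serves BiP as a nucleotide exchange factor, rose 1.68-fold in PKBa-/- cells and 1.45-fold in wild type cells. Manf, a BiP cofactor that can also be secreted, rose in PKBa-/- cells, and Syvn1, the ubiquitin ligase of ER-associated degradation, and Xbp1 rose in wild type cells. Folds are on the scale of signal + 32. No other member passed the test, which was limma's moderated test with p adjusted over 7436 genes and a threshold of 0.05. Thus 3 of 33 members rose in PKBa-/- cells, where 8.59% of all genes tested rose, and 4 of 33 rose in wild type cells, where 4.22% did. No member fell, while 727 of the 7436 genes tested fell in PKBa-/- cells and 572 in wild type cells. The count that rose in PKBa-/- cells is near the background.

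Hspa5 had signals of 8205, 8555, 7666 and 7978 at time 6 in PKBa-/- cells, against 5346, 5498, 4479.6 and 4629 at time 0, a log2 difference of 0.70 ± 0.13 (adjusted p = 0.00350). Its signals in wild type cells were 8018, 7861, 8964 and 7936 at time 6, against 5939, 5832, 5998 and 5905 at time 0, a log2 difference of 0.47 ± 0.13 (adjusted p = 0.0387). In each genotype all 4 arrays at time 6 lay above all 4 at time 0, and the signal was about as high in both genotypes at time 6. Hyou1 had 1103, 975, 908 and 906 at time 6 in PKBa-/- cells, against 562, 641, 506 and 564 at time 0 (log2 difference 0.74 ± 0.11, adjusted p = 0.00120). The wild type signals were 1165, 937, 940.2 and 981 at time 6, against 687, 689, 675 and 672 at time 0 (log2 difference 0.54 ± 0.11, adjusted p = 0.0108). Again the arrays of the 2 times did not overlap in either genotype.

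Manf had 2911, 2774, 2019.5 and 2202 at time 6 in PKBa-/- cells, against 1664, 1847, 1045 and 1357 at time 0, with a log2 difference of 0.75 ± 0.24 (adjusted p = 0.0489). The difference in wild type cells was 0.63 ± 0.24 and did not pass (adjusted p = 0.115), with replicates 1 and 2 far above replicates 3 and 4 at time 6. Xbp1, which encodes the transcription factor that IRE1 activates by splicing its mRNA, had 2365, 2351, 2455 and 2344 at time 6 in wild type cells, against 1689, 1639.5, 1381 and 1396 at time 0. Its log2 difference was 0.64 ± 0.14 (adjusted p = 0.0121) there and 0.35 ± 0.14 (adjusted p = 0.0984) in PKBa-/- cells, and the probe sets do not tell spliced from unspliced mRNA. Syvn1 had 1086, 1032, 889 and 899 at time 6 in wild type cells, against 733, 739, 591 and 689.8 at time 0, a log2 difference of 0.49 ± 0.14 (adjusted p = 0.0419). The Syvn1 difference in PKBa-/- cells was 0.37 ± 0.14 (adjusted p = 0.0898). The arrays of Xbp1 and Syvn1 at time 6 lay above those at time 0 in both genotypes.

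The largest difference between times 6 and 0 belonged to a gene that did not pass. Dnajb9, a J-domain partner of BiP, had 704, 659, 468 and 472 at time 6 in PKBa-/- cells, against 287, 335, 268 and 230.2 at time 0, and 1297, 1358, 828 and 683 at time 6 in wild type cells, against 671, 612, 490.5 and 432 at time 0. All arrays at time 6 lay above those at time 0 of their genotype, but replicates 1 and 2 lay above replicates 3 and 4 at both times. The log2 differences were 0.95 ± 0.34 (adjusted p = 0.0732) and 0.84 ± 0.34 (adjusted p = 0.133). A fit in which the replicate pair within each genotype is a block, which removes that offset between pairs, gave adjusted p = 3.0e-05 in PKBa-/- cells and 1.2e-04 in wild type cells.

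In that blocked fit 15 members were higher at time 6 in PKBa-/- cells, against 18.1% of all genes. In wild type cells 14 were higher, against 12.9%, and 1 was lower, against 19.3%. The 11 members higher in both genotypes in the blocked fit were Hspa5, Hyou1, Dnajb9, Dnajb11, Sdf2l1, Manf, Creld2, Syvn1, Xbp1, Ssr1 and Serp1. By role, 7 of the 9 chaperones and BiP partners were higher in PKBa-/- cells and 8 of 9 in wild type cells in the blocked fit. Of the 5 translocon genes, 4 were higher in PKBa-/- cells and 2 in wild type cells. None of the 3 glycoprotein-folding genes (Calr, Canx and Uggt1) and neither collagen helper (Serpinh1 and Ppib) passed in either fit. Of the 6 protein disulfide isomerases 1, P4hb, passed in the blocked fit, in wild type cells. The median log2 difference over the 33 members was 0.21 in PKBa-/- cells and 0.22 in wild type cells, against -0.012 and -0.0055 over all genes tested. The counts without the block rest on few samples: without wild type replicates 3 and 4 at time 0, or without wild type replicates 1 and 2 at time 6, none passed in wild type cells. Without PKBa-/- replicates 3 and 4 at time 0, 1 member passed in PKBa-/- cells, and without PKBa-/- replicate 3 at time 6, 5 did. The count in wild type cells was 1 without wild type replicates 1 and 2 at time 0 or replicates 3 and 4 at time 6, and 2 without either pair of the PKBa-/- arrays at time 6.

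**Figure D2:**
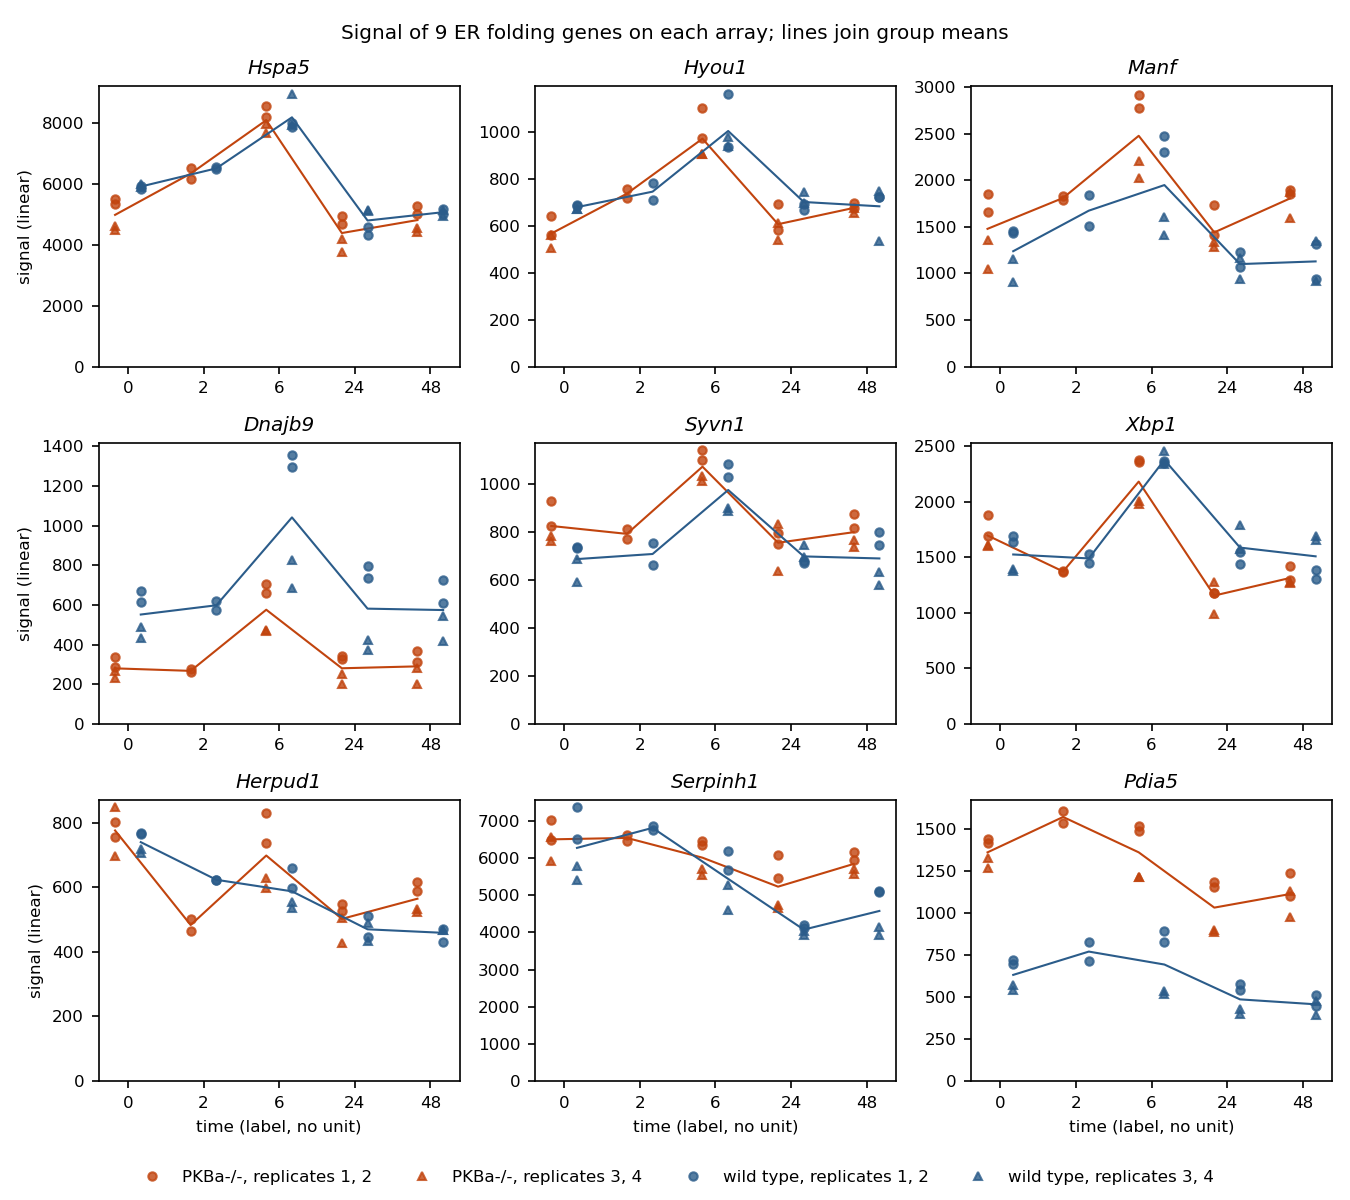
Signal (linear scale) of 9 ER folding genes on each of the 36 arrays, by time, with PKBa-/- arrays in orange on the left and wild type arrays in blue on the right of each time; lines join group means, circles are replicates 1 and 2, and triangles are replicates 3 and 4. The means of 6 panels peak at time 6 in both genotypes and those of Herpud1 at time 0. Those of Serpinh1 and Pdia5 peak at time 2, which holds circles alone. On circles alone Serpinh1 is highest at time 0 in both genotypes. Pdia5 is then highest at time 6 in wild type cells and at time 2 in PKBa-/- cells. Pdia5 is higher and Dnajb9 lower in PKBa-/- cells. Circles and triangles separate for Dnajb9 and, in most groups, for Manf, Pdia5 and Serpinh1.

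Between time 6 and time 24 genes of the same machinery fell. Of 33 members 11 fell and none rose in PKBa-/- cells, where 9.20% of all genes tested fell and 8.66% rose. There were 7 of 33 that fell and none that rose in wild type cells, where 4.38% fell and 4.71% rose. The 6 that fell in both genotypes were Hspa5, Hyou1, Pdia6, Xbp1, Ssr1 and Serp1; Calr, Dnajb11, Manf, Herpud1 and Syvn1 passed in PKBa-/- cells alone and Creld2 in wild type cells alone, which does not show that the genotypes differ. The log2 difference was below 0 for 32 of 33 members in each genotype, and for 31 in both. Of the 7436 genes tested, 3677 were below 0 in PKBa-/- cells and 3446 in wild type cells. The share of all genes was not counted for this or any other count of members in both genotypes. The median over the members was -0.39 in PKBa-/- cells and -0.32 in wild type cells, against 0.0038 and 0.020 over all genes tested. This comparison and the previous one share the arrays of time 6. The exceptions above 0 were Derl2, a channel component of ER-associated degradation, at 0.18 in PKBa-/- cells, and Atf6 at 0.02 in wild type cells.

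Hspa5 fell to 4946, 4676, 4180.2 and 3763 at time 24 in PKBa-/- cells, a log2 difference of -0.89 ± 0.13 (adjusted p = 0.00118) from time 6. It fell to 4338, 4605, 5141 and 5126 in wild type cells, a difference of -0.77 ± 0.13 (adjusted p = 0.00535). Each of these arrays lay below all arrays of time 6 and, in wild type cells, also below all arrays of time 0. Xbp1 had 1178, 1177, 987 and 1282 at time 24 in PKBa-/- cells, against 2360.2, 2380, 2006 and 1984 at time 6, a difference of -0.90 ± 0.14 (adjusted p = 0.00148). The Xbp1 signals at time 24 in wild type cells were 1546, 1437, 1576 and 1794, and the difference from time 6 was -0.58 ± 0.14 (adjusted p = 0.0248). Serp1, a small protein that stabilises the translocon, had 1584, 1485, 1786 and 1999 at time 24 in PKBa-/- cells, against 2875, 3049, 3215 and 3449.5 at time 6. The 2 times did not overlap for either gene.

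The log2 difference of Serp1 was -0.87 ± 0.18 (adjusted p = 0.00734) in PKBa-/- cells and -0.77 ± 0.18 (adjusted p = 0.0234) in wild type cells. Ssr1, a subunit of the translocon-associated protein complex, differed by -0.50 ± 0.15 (adjusted p = 0.0416) and -0.68 ± 0.15 (adjusted p = 0.0210), and Hyou1 by -0.65 ± 0.11 (adjusted p = 0.00294) and -0.49 ± 0.11 (adjusted p = 0.0216). Serp1 and Ssr1 were the 2 of 5 translocon genes that fell in each genotype. Pdia6, a disulfide isomerase, had 1818, 1728, 1659.6 and 1588 at time 24 in PKBa-/- cells, against 2449.7, 2451, 2198 and 2068 at time 6, and 1397, 1409, 1257 and 1324 in wild type cells, against 2252, 2229.5, 1792 and 1852. Its differences were -0.42 ± 0.13 (adjusted p = 0.0361) in PKBa-/- cells and -0.58 ± 0.13 (adjusted p = 0.0171) in wild type cells. It was the one disulfide isomerase of 6 that passed.

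Of the members that passed in PKBa-/- cells alone, Calr, which encodes the glycoprotein chaperone calreticulin, had a log2 difference of -0.35 ± 0.10 (adjusted p = 0.0310) there and -0.31 ± 0.10 (adjusted p = 0.0738) in wild type cells. Manf differed by -0.76 ± 0.24 (adjusted p = 0.0464) and -0.77 ± 0.24 (adjusted p = 0.0645). Syvn1 differed by -0.49 ± 0.14 (adjusted p = 0.0295) and -0.46 ± 0.14 (adjusted p = 0.0601). The sizes were close between genotypes in each case. Dnajb11, another J-domain partner of BiP, differed by -0.48 ± 0.15 (adjusted p = 0.0480) in PKBa-/- cells and -0.52 ± 0.15 (adjusted p = 0.0513) in wild type cells. Creld2, an ER protein induced in the unfolded protein response, had 343, 369, 463 and 368 at time 24 in wild type cells, against 637, 616, 629.6 and 613 at time 6. Its difference was -0.66 ± 0.18 (adjusted p = 0.0387) in wild type cells and -0.55 ± 0.18 (adjusted p = 0.0502) in PKBa-/- cells, just past the threshold on one side and just short of it on the other. Dnajb9 again had large differences that did not pass, -0.96 ± 0.34 (adjusted p = 0.0709) in PKBa-/- cells and -0.82 ± 0.34 (adjusted p = 0.155) in wild type cells.

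With the replicate pair as a block 22 members were lower at time 24 than at time 6 in PKBa-/- cells, against 18.6% of all genes, and 20 in wild type cells, against 13.4%; 16 were lower in both. These 16 added Calr, Pdia5, Dnajb9, Dnajb11, Dnajc3, Manf, Creld2, Herpud1, Syvn1 and Sec61b to the 6 above. For Dnajb9 the blocked adjusted p was 3.6e-05 in PKBa-/- cells and 2.4e-04 in wild type cells. Lower in this fit in PKBa-/- cells were 8 of the 9 chaperones and partners and 4 of the 5 translocon genes; 8 of 9 and 3 of 5 were lower in wild type cells. The counts without the block depended on single pairs: without replicates 1 and 2 at time 24, none passed in wild type cells, and without replicates 1 and 2 or 3 and 4 at time 6, 1 and 4 did. Without wild type replicates 3 and 4 at time 24, 3 passed. The count in PKBa-/- cells was 4 without replicates 1 and 2 at time 6, and 5 without replicates 3 and 4 at time 6 or at time 24.

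**Figure D3:**
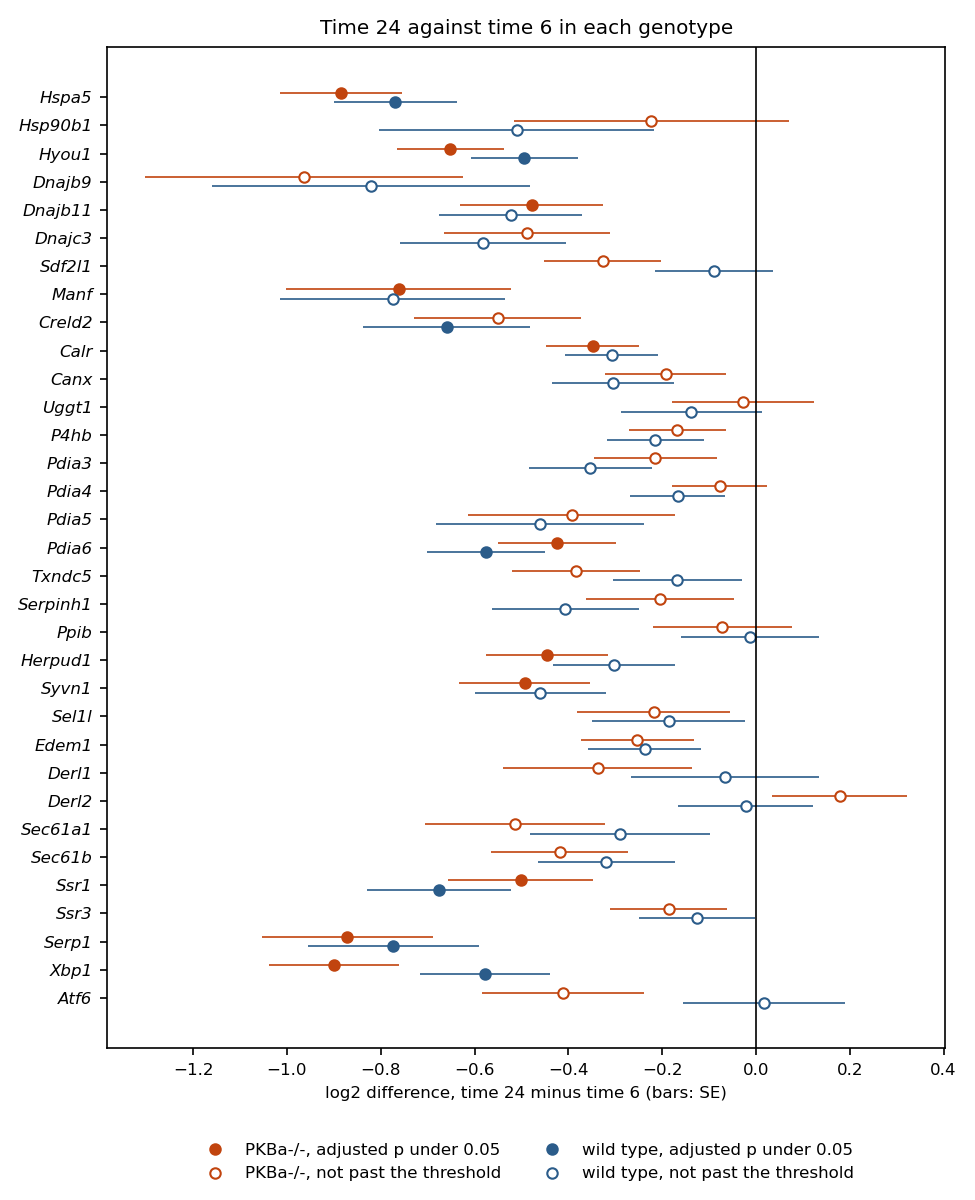
Log2 difference of time 24 minus time 6 for the 33 ER folding genes (x axis; bars are SE), with PKBa-/- in orange above wild type in blue for each gene; filled points passed at an adjusted p under 0.05. In PKBa-/- cells 32 of 33 points lie below 0, as do 32 of 33 in wild type cells, and Dnajb9 has wide bars.

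Over the 5 times, 20 of 33 members had their highest group mean at time 6 in PKBa-/- cells and 22 of 33 in wild type cells. Among all genes tested, 25.3% and 24.5% did. At time 2, 8 members were highest in PKBa-/- cells, against 20.1% of all genes tested. Among them were Canx, which encodes the lectin chaperone calnexin, Pdia5 and Serpinh1. Time 2 held replicates 1 and 2 alone, so its means are not matched by pair to those of other times. Within these 2 replicates in PKBa-/- cells, Canx was highest at time 6 (1792 and 1821, against 1663 and 1736 at time 2). Serpinh1 was then highest at time 0, and Pdia5 at time 2. At time 0, 5 were highest in wild type cells, against 20.5% of all genes tested, among them Canx, Pdia3 and Herpud1. The counts at times 2 and 0 are near the background. The gene-by-gene differences from time 0 are shown in the map of changes by role.

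The 8 genes whose promoter carries the ER stress element were lower at time 24 than at time 6 without exception, by a median of -0.46 in PKBa-/- cells (-0.89 to -0.19) and -0.54 in wild type cells (-0.77 to -0.30) on the log2 scale. For the 18 genes in the promoter table without either element, the medians were -0.24 and -0.23, and the range ran from -0.96 to 0.18 in PKBa-/- cells and from -0.82 to -0.01 in wild type cells. These 18 were thus also all lower at time 24 in wild type cells, and all but Derl2 were in PKBa-/- cells. At time 6 against time 0 the medians of the 8 were 0.21 and 0.24, and those of the 18 were 0.20 and 0.18. The ranges of the 2 sets overlapped in each comparison: Dnajb9, Serp1 and Xbp1, without the element in this window, were at -0.96, -0.87 and -0.90 in PKBa-/- cells, close to Hspa5 at -0.89. These values are a description, and the difference between the sets was not tested.

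**Figure D4:**
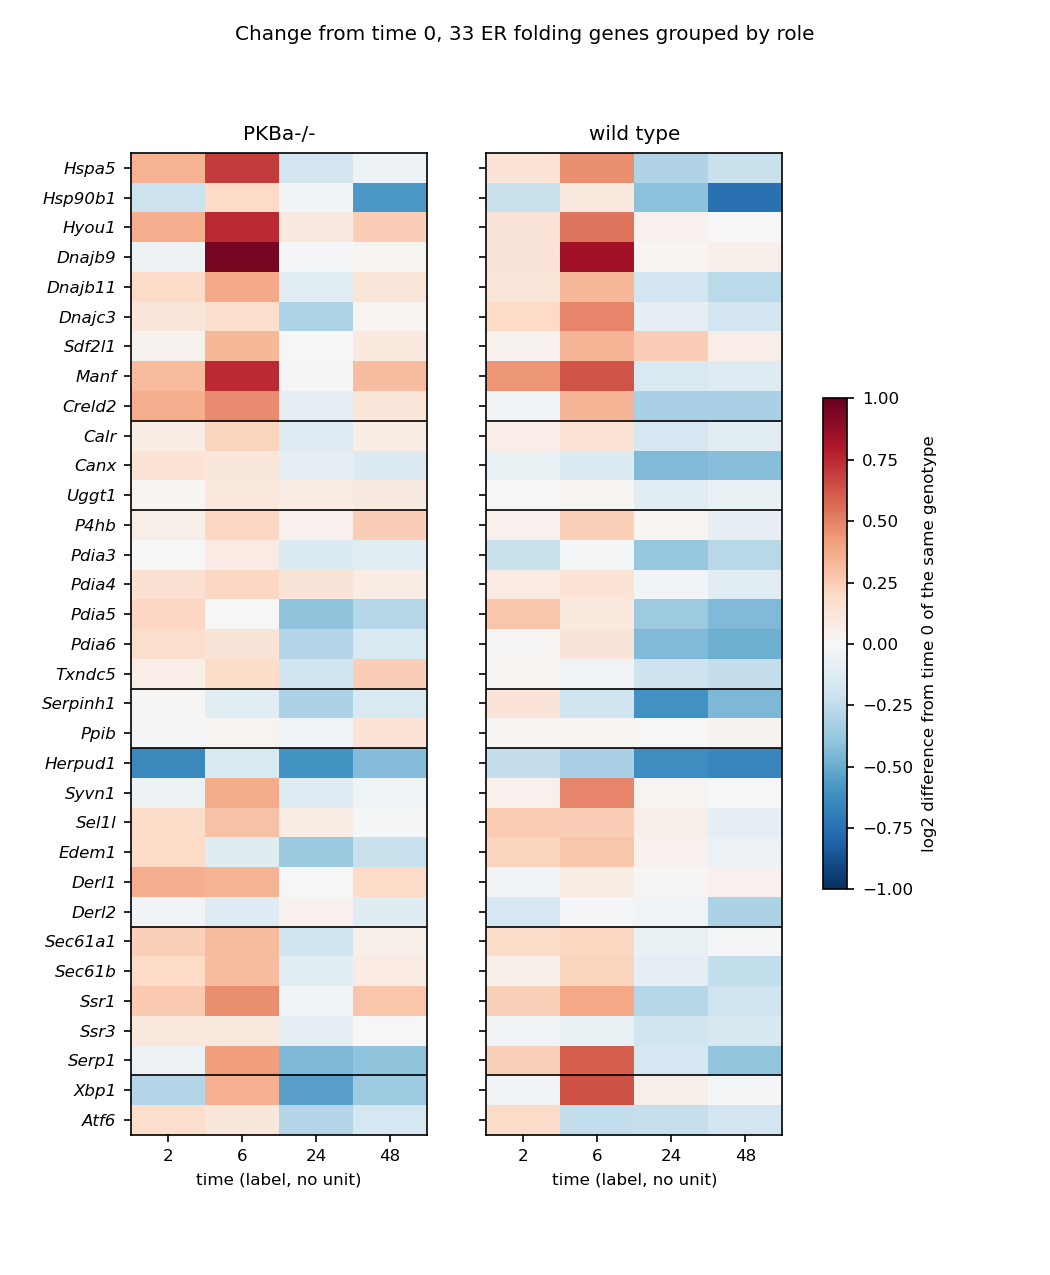
Log2 difference from time 0 of the same genotype for the 33 ER folding genes (rows, grouped by role between black lines) at times 2, 6, 24 and 48 (columns), with PKBa-/- on the left and wild type on the right; red is higher and blue lower than time 0. Red is concentrated at time 6 among the chaperones and translocon genes, and Herpud1 is blue in every column of both genotypes.

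Herpud1, a membrane protein of the degradation complex and a known target of the unfolded protein response, had another time course. In PKBa-/- cells it had 757, 803, 697 and 848 at time 0, 502 and 464 at time 2, 829, 737, 599 and 629 at time 6, 526, 548, 429 and 506 at time 24 and 587, 616, 524 and 532 at time 48. In wild type cells it had 766, 769, 705 and 719.5 at time 0, 623 and 624 at time 2, 598, 661, 536 and 556 at time 6, 446, 512, 488 and 434 at time 24 and 469.8, 431, 467 and 468 at time 48. Time 0 had the highest group mean in both genotypes, and the arrays of times 24 and 48 lay below all arrays of time 0. Relative to time 0 it fell at time 2 in PKBa-/- cells, by 0.65 ± 0.16 on the log2 scale (adjusted p = 0.0473), where 1.24% of all genes fell. It was the one member called at time 2. That call is near the threshold, and it was lost on leaving out any of 15 of the 36 arrays or 12 pairs of arrays, including PKBa-/- replicate 2 at time 2. The wild type difference at time 2 was -0.24 ± 0.16 (adjusted p = 0.630). There no member passed at time 2 in limma's test, against 2.73% of all genes, none had an unadjusted p under 0.05, and none passed in the blocked fit or with all arrays as replicates.

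At time 24 against time 0, 2 members fell and none rose in each genotype, where 3.35% of all genes fell and 2.80% rose in PKBa-/- cells, and 3.46% fell and 2.21% rose in wild type cells. Herpud1 fell in both, by 0.60 ± 0.13 on the log2 scale in PKBa-/- cells (adjusted p = 0.0178) and by 0.62 ± 0.13 in wild type cells (adjusted p = 0.0159). The other member in PKBa-/- cells was Xbp1, at -0.54 ± 0.14 (adjusted p = 0.0374), and in wild type cells it was Serpinh1, the collagen chaperone, at -0.61 ± 0.16 (adjusted p = 0.0427). Serpinh1 had 4208, 4130.4, 3921 and 4049 at time 24 in wild type cells, against 6520.1, 7380.4, 5405 and 5800.2 at time 0, with no overlap. It had 5459.5, 6072, 4656 and 4745 at time 24 in PKBa-/- cells, against 7029, 6497, 6574 and 5923 at time 0, where replicate 2 of time 24 lay within the range of time 0, and its difference was -0.32 ± 0.16 (adjusted p = 0.300). The wild type calls were both lost without wild type replicates 1 and 2 at time 0 or either wild type pair at time 24. The PKBa-/- calls were both lost without either PKBa-/- pair at time 0 or without PKBa-/- replicates 3 and 4 at time 24. With the replicate pair as a block 8 members were lower in PKBa-/- cells, against 11.7% of all genes, and 9 in wild type cells, against 13.1%. Herpud1, Serpinh1, Pdia5 and Pdia6 were lower in both.

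At time 48 against time 0, no member passed in PKBa-/- cells in limma's test, where 7.45% of all genes did; 4 had an unadjusted p under 0.05, 9 passed with all arrays as replicates, where 29.3% of all genes did. With the replicate pair as a block 2 were higher (P4hb and Ssr1) and 4 lower (Hsp90b1, Herpud1, Xbp1 and Serp1), against 12.7% of all genes in each direction. In wild type cells 2 members fell, where 3.89% of all genes did: Herpud1 by 0.65 ± 0.13 on the log2 scale (adjusted p = 0.0119) and Pdia6 by 0.49 ± 0.13 (adjusted p = 0.0390). Both wild type calls were lost without wild type replicates 1 and 2 at time 0 or at time 48. In the blocked fit 10 were lower, against 15.5% of all genes. The lowest was Hsp90b1, which encodes the ER Hsp90 chaperone GRP94. It had 1029, 1142, 1837 and 2167 at time 48 in PKBa-/- cells, against 2022, 1817, 2475 and 2607 at time 0, and 1063, 871, 1756 and 1315 in wild type cells, against 1811, 1994, 2188 and 2226. Replicates 1 and 2 lay below replicates 3 and 4 in every one of these groups. Its log2 difference was -0.57 ± 0.29 (adjusted p = 0.294) in PKBa-/- cells and -0.74 ± 0.29 (adjusted p = 0.173) in wild type cells, and the blocked adjusted p was 0.00967 and 0.00208. Hspa5, Hyou1, Calr and Creld2 did not pass at time 48 in either genotype without the block.

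The second comparison asked how PKBa-/- cells differed from wild type cells, averaged over the 5 times. The replicate pairs of a genotype recur across times but were counted as independent, so the p-values of this average are too small. Of the 6 disulfide isomerases 4 were higher in PKBa-/- cells and none lower; of the 9 chaperones and BiP partners 3 were lower and 1, Manf, was higher. Of all 33 members 8 were higher (Pdia5, Pdia3, Manf, Ppib, Pdia6, Calr, Pdia4 and Edem1) and 4 lower (Dnajb9, Dnajc3, Sec61b and Sdf2l1), together 36.4%. Over all genes tested 47.4% passed, 26.5% higher and 20.9% lower, so the share among the members was below the background. In the blocked fit 22 members passed (66.7%), against 62.9% of all genes. The median difference was 0.03 over the members and 0.03 over all genes tested. No member separated all 18 PKBa-/- arrays from all 18 wild type arrays, which 5.72% of all genes did.

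Pdia5, a disulfide isomerase, had the largest difference. Its signal ran from 886 to 1610 (median 1228) in PKBa-/- arrays and from 395 to 892 (median 540.5) in wild type arrays, and the log2 difference was 1.06 ± 0.11 (adjusted p = 6.2e-06). The ranges overlapped only because the lowest PKBa-/- array, at time 24, was under the highest wild type array, at time 6; at each time all PKBa-/- arrays lay above all wild type arrays. It passed at times 0, 6, 24 and 48, with log2 differences of 1.08, 0.97, 1.04 and 1.23, each with an SE of 0.22. At time 2, with 1 pair average per genotype, it was 1.00 ± 0.31 (adjusted p = 0.0931). Pdia3, the isomerase that works with calnexin and calreticulin, ran from 3498 to 4943 (median 4171) in PKBa-/- arrays and from 2583 to 4072 (median 3090) in wild type arrays, a log2 difference of 0.41 ± 0.06 (adjusted p = 2.3e-04). Calr ran from 5275 to 7557 (median 6499) and from 4415 to 6370 (median 5321), a difference of 0.27 ± 0.05 (adjusted p = 6.8e-04). For both the medians stood apart while the ranges overlapped.

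Pdia6 differed by 0.31 ± 0.06 (adjusted p = 0.00138) and Pdia4 by 0.21 ± 0.05 (adjusted p = 0.00350). Ppib, the prolyl isomerase cyclophilin B, which assists collagen folding, differed by 0.35 ± 0.07 (adjusted p = 0.00155), and Manf by 0.36 ± 0.12 (adjusted p = 0.0251). The largest of these 4, that of Manf, was 1.28-fold. Edem1, which directs misfolded glycoproteins to degradation, differed by 0.15 ± 0.06 (adjusted p = 0.0495), the smallest difference that passed. Of the other 2 disulfide isomerases, P4hb was at 0.03 ± 0.05 (adjusted p = 0.704) and Txndc5 at -0.09 ± 0.07 (adjusted p = 0.285), and neither passed.

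On the lower side stood 3 of the 9 chaperones and BiP partners and 1 of the 5 translocon genes. Of the same 9, Manf was higher and the rest did not pass. Dnajb9 ran from 201 to 704 (median 299) in PKBa-/- arrays and from 373 to 1358 (median 617) in wild type arrays, a log2 difference of -0.92 ± 0.17 (adjusted p = 6.4e-04), with a value of -1.0 in replicates 1 and 2 alone and -0.78 in replicates 3 and 4 alone. Its largest PKBa-/- values all came from time 6. Dnajc3, a J-domain protein of the ER that also restrains PERK, differed by -0.35 ± 0.09 (adjusted p = 0.00554) on its brightest probe set and by -0.15 and -0.11 on the other 2 above the limit. Sdf2l1, a partner of BiP and its J-domain proteins, differed by -0.34 ± 0.06 (adjusted p = 6.8e-04). Sec61b, a subunit of the translocation channel, differed by -0.34 ± 0.07 (adjusted p = 0.00167). Hspa5 itself differed by -0.10 ± 0.06 (adjusted p = 0.207), with values of 0.01 in replicates 1 and 2 alone and -0.26 in replicates 3 and 4 alone, and Hyou1 by -0.10 ± 0.06 (adjusted p = 0.146). Neither passed, and neither did Xbp1 at -0.15 ± 0.07 (adjusted p = 0.0962), Herpud1 at 0.06 ± 0.06 (adjusted p = 0.450), Creld2 at -0.08 ± 0.09 (adjusted p = 0.460), Serpinh1 at 0.17 ± 0.08 (adjusted p = 0.0858) or Hsp90b1 at 0.24 ± 0.14 (adjusted p = 0.195).

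**Figure D5:**
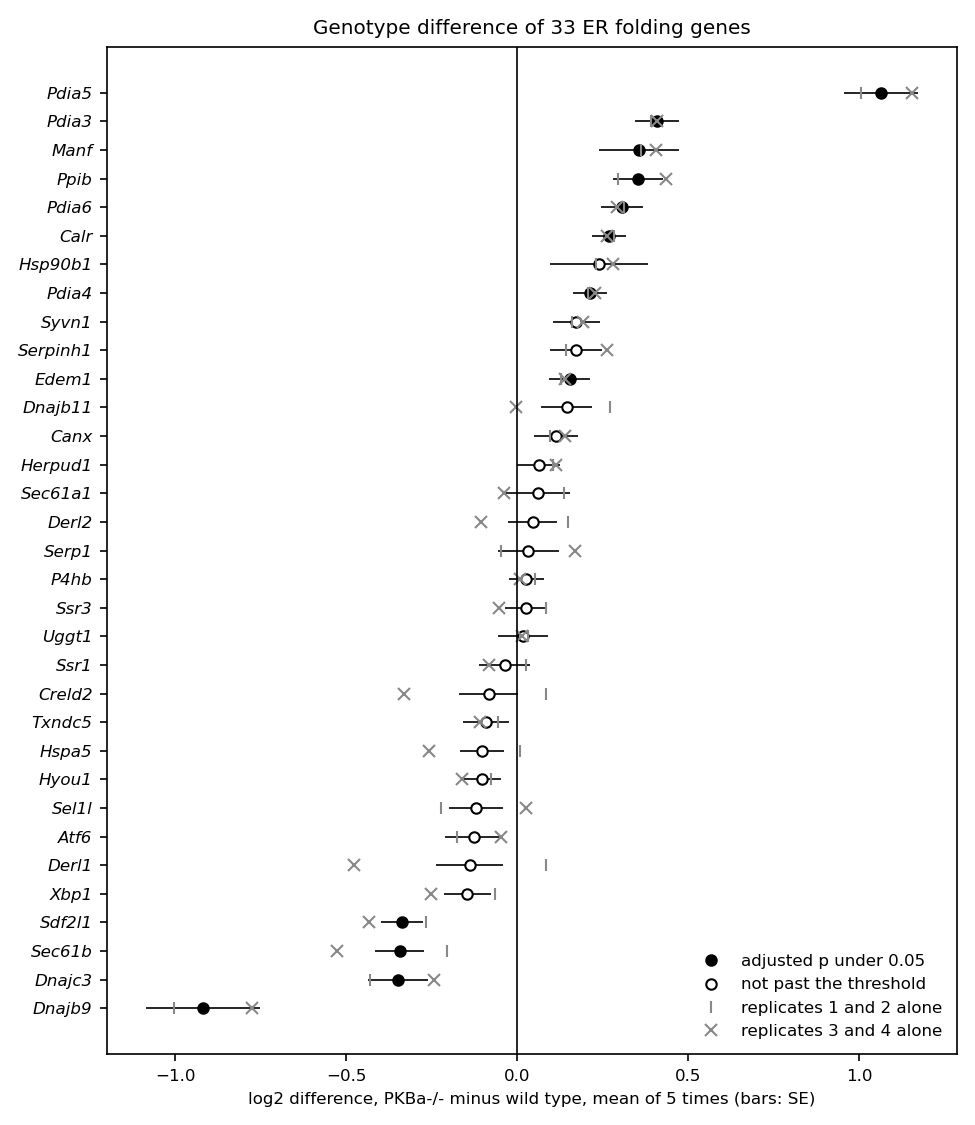
Log2 difference between genotypes (PKBa-/- minus wild type), as the mean of the 5 times, for the 33 ER folding genes in order of size (points; bars are SE), with filled points at an adjusted p under 0.05, and grey marks for replicates 1 and 2 alone and replicates 3 and 4 alone. Pdia5 at 1.06 and Dnajb9 at -0.92 lie far from the rest. The marks of the 2 pairs lie on opposite sides of 0 for several members, among them Derl1, Creld2, Hspa5, Derl2, Sel1l, Ssr1, Ssr3 and Serp1.

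At single times fewer members passed. At time 0 the count was 1 (Pdia5), against 14.8% of all genes. At time 2 no member passed in limma's test, against 5.78% of all genes; 3 had an unadjusted p under 0.05, 4 passed in the blocked fit, against 18.2%, and 7 with all arrays as replicates, against 23.5%. At time 6, 2 passed (Pdia5 higher, Dnajc3 lower), against 16.5%. The Dnajc3 call rests on its brightest probe set, at -0.58; its other 2 probe sets above the limit were on the opposite side, at 0.19 and 0.11. At time 24, 5 passed, against 20.4%: Pdia5 and Pdia3 were higher, and Sdf2l1 (-0.54 ± 0.12), Sec61b (-0.47 ± 0.15) and Xbp1 (-0.45 ± 0.14) were lower on the log2 scale. At time 48, 5 passed, against 23.2%, all of them higher in PKBa-/- cells: Pdia5, Pdia6 (0.51 ± 0.13), Ppib (0.45 ± 0.15), Pdia3 (0.43 ± 0.13) and Calr (0.39 ± 0.10). These shares were below the background at each time. In the blocked fit the counts at times 0, 6, 24 and 48 were 10, 8, 16 and 13 of 33, against 36.2%, 35.9%, 39.3% and 43.3% of all genes. Leaving out either pair of a genotype at time 24 or at time 48 lowered the count at that time to between 1 and 3. At time 0 the count ran from 0 (without wild type replicates 3 and 4 at that time) to 3, and it moved on leaving out 6 of the 36 arrays and 4 of the 16 pairs. At time 6 it fell to 1 or, without PKBa-/- replicates 1 and 2 at that time, to 0 on leaving out 12 of the 16 pairs and 4 of the 36 arrays.

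The third comparison asked whether the changes over time differed between the genotypes. No member passed in limma's test of the difference of changes at time 6, 24 or 48, where 0.551%, 0.726% and 1.14% of all genes did, or in the F test over the 4 later times, where 1.75% did. At an unadjusted p under 0.05 there were 1, 2 and 2 members at these times and none in the F test. The shares of all genes at an unadjusted p under 0.05 were not counted, here or above. The smallest F-test p of a member was that of Xbp1 (unadjusted p = 0.105, adjusted p = 0.671). Its difference of changes at time 24, PKBa-/- minus wild type, was -0.60 ± 0.20 (adjusted p = 0.328): relative to time 0 it was at -0.54 in PKBa-/- cells and at 0.06 in wild type cells. With the replicate pair within genotype as a block this difference passed (adjusted p = 0.0451), as did that of Ssr1 at time 48 (0.47, adjusted p = 0.0372), where 6.02% and 11.2% of all genes did. With all arrays as replicates 1, 2 and 4 members passed at times 6, 24 and 48, where 8.81%, 8.24% and 14.3% of all genes did. A difference that misses the threshold does not show that the time courses are alike. For Hspa5 the difference of changes at time 6 was 0.24 ± 0.18 and for Hyou1 0.21 ± 0.16.

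Other genes of the same pathways were counted from lists chosen with earlier results of these data known. Among 17 genes of the sensors and the PERK arm, 5 fell and 1 rose at time 6 in each genotype. Over all genes tested, 9.78% fell and 8.59% rose in PKBa-/- cells, and 7.69% fell and 4.22% rose in wild type cells. Trib3, an ATF4 target that restrains ATF4, was at -1.09 ± 0.18 (adjusted p = 0.00176) in PKBa-/- cells and -1.36 ± 0.18 (adjusted p = 6.7e-04) in wild type cells. Ddit3, which encodes the transcription factor CHOP, was at -0.96 ± 0.16 (adjusted p = 0.00171) and -0.80 ± 0.16 (adjusted p = 0.00770), and Chac1, another target of this arm, at -1.02 ± 0.20 (adjusted p = 0.00435) and -0.96 ± 0.20 (adjusted p = 0.00984). The gene that rose was Wfs1, an ER membrane protein, at 0.75 ± 0.12 (adjusted p = 0.00152) and 0.56 ± 0.12 (adjusted p = 0.0109). Trib3, Ddit3 and Chac1 had already fallen at time 2 in both genotypes. Between times 6 and 24 Wfs1 fell with the members, by 1.07 ± 0.12 on the log2 scale in PKBa-/- cells and 0.75 ± 0.12 in wild type cells.

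Of 14 genes of COPII coats and ER exit, 4 fell and none rose between times 6 and 24 in each genotype. Over all genes tested, 9.20% fell and 8.66% rose between these times in PKBa-/- cells, and 4.38% and 4.71% in wild type cells. From time 0 to time 6, 9.78% of all genes fell and 8.59% rose in PKBa-/- cells, and 7.69% and 4.22% in wild type cells. Sec13, Sec23b and Surf4 fell in both; Sec23b, a coat subunit, was at -1.07 ± 0.17 (adjusted p = 0.00180) in PKBa-/- cells and -0.85 ± 0.17 (adjusted p = 0.0119) in wild type cells. It had risen at time 6, at 0.67 ± 0.17 (adjusted p = 0.0167) and 0.87 ± 0.17 (adjusted p = 0.00725). Of 17 other translocation genes 1, Srprb, which encodes a subunit of the signal recognition particle receptor, rose at time 6 and fell by time 24 in both genotypes. Its differences were 0.95 ± 0.24 and -0.95 ± 0.24 in PKBa-/- cells and 0.85 ± 0.24 and -0.99 ± 0.24 in wild type cells. Of 13 other degradation genes 1 rose and 1 fell at time 6 in PKBa-/- cells, and 1 rose and none fell in wild type cells. Edem3, a mannosidase-like relative of Edem1, rose in both, at 0.89 ± 0.19 (adjusted p = 0.00800) and 0.67 ± 0.19 (adjusted p = 0.0419). Between times 6 and 24, 1 of the 13 rose and 1 fell in PKBa-/- cells, and 2 rose and none fell in wild type cells. Of 26 other folding and glycosylation genes 4 passed between times 6 and 24 in each genotype, 2 lower and 2 higher in PKBa-/- cells and 3 lower and 1 higher in wild type cells. In PKBa-/- cells the counts of these 26 and of the 13 degradation genes were near the shares over all genes.

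Chaperones outside the ER changed too. Of 18 cytosolic and mitochondrial heat shock genes tested, 8 rose and 1 fell at time 6 in PKBa-/- cells, and 3 rose and 1 fell in wild type cells. Over all genes tested, 8.59% rose and 9.78% fell in PKBa-/- cells, and 4.22% and 7.69% in wild type cells. Between times 6 and 24, 10 of the 18 fell in PKBa-/- cells and 4 in wild type cells, against 9.20% and 4.38% of all genes. None rose. Bag3, a partner of Hsp70, and Chordc1, a partner of Hsp90, rose at time 6 in both genotypes. Bag3 was at 1.11 ± 0.16 (adjusted p = 7.7e-04) in PKBa-/- cells and 0.59 ± 0.16 (adjusted p = 0.0319) in wild type cells. Hsph1, an exchange factor of cytosolic Hsp70, was at 1.89 ± 0.30 (adjusted p = 0.00138) in PKBa-/- cells and 0.78 ± 0.30 (adjusted p = 0.113) in wild type cells.

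The collagen-modifying enzymes of the ER differed between genotypes in all 6 tested genes, 4 higher and 2 lower in PKBa-/- cells, where 47.4% of all genes passed, 26.5% higher and 20.9% lower. Plod3, a lysyl hydroxylase, was at 0.80 ± 0.06 (adjusted p = 7.3e-07), and Crtap, a subunit of the prolyl hydroxylase complex that holds Ppib, at 0.77 ± 0.08 (adjusted p = 5.0e-06). Plod2, another lysyl hydroxylase, was at -1.94 ± 0.08 (adjusted p = 7.6e-10). Of 6 fibrillar collagen chains, clients of Serpinh1, 5 were higher in PKBa-/- cells and none lower, against the same 26.5% and 20.9%, among them Col1a1 at 0.41 ± 0.07 (adjusted p = 3.4e-04) and Col5a1 at 1.18 ± 0.09 (adjusted p = 3.6e-07).

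The annotation lists the ER oxidases as Ero1a and Ero1b. Ero1b lay below the limit for testing. Ero1a, which reoxidises the disulfide isomerases, had 383, 354, 278 and 331 at time 24 in PKBa-/- cells, against 645, 659, 632 and 672 at time 0, and 487, 514, 555 and 489 in wild type cells, against 762, 840, 729.9 and 751. It fell in both genotypes, with log2 differences of -0.90 ± 0.13 (adjusted p = 0.00162) and -0.56 ± 0.13 (adjusted p = 0.0243), and unlike Hspa5 it was at 0.08 ± 0.13 and -0.16 ± 0.13 at time 6. Its genotype difference averaged over the times was -0.33 ± 0.06 (adjusted p = 0.00101).

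Of the 33 members 18 had more than 1 probe set above the limit for testing. In these, all such probe sets pointed the same way in 17 for time 24 minus time 6 in PKBa-/- cells and in 18 in wild type cells. For time 6 minus time 0 they did in 16 in each genotype. For the genotype difference they did in 14; Hspa5 was among the 4 that did not, with probe sets at -0.10 and 0.03. Of the 57 single-gene calls described above, 31 concerned members with several such probe sets, and in 30 of these all pointed the same way. The exception was Dnajc3 at time 6. For Xbp1 at time 24 the next brightest probe sets above the limit gave genotype differences of -0.36 and -0.21, against -0.45 on the brightest.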

How the data were processed

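Total RNA of 36 samples was labelled as biotinylated cRNA and measured on Affymetrix arrays, per the labels. The authors deposited linear intensities, 1 for each of 22690 probe sets on every array, from 8.62 to 19337; their summary and normalization are not given in the sources used here. Array medians lay between 134 and 145, so the values were not normalized further, and precision is limited by how many arrays there were.

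Probe sets with 1 gene (20380) were named through the platform annotation; for 12393 genes the brightest one was taken. Values were log2(signal + 32), and the 40% of genes with the lowest mean, up to a signal of about 123.3, were dropped, which left 7436. Arrays of replicates 1 and 2, and of 3 and 4, correlated at 0.993 on average within a group (n = 18) and at 0.969 with the other pair (n = 32), and limma's correlation within pairs was 0.660, so each pair was averaged. These 18 averages were fitted with 10 group means in limma 3.58.1 (R 4.3.3), with 8 residual degrees of freedom and 4.24 from the prior. The moderated test was two-sided, and p-values were adjusted within each contrast over all 7436 genes (Benjamini-Hochberg) with a threshold of 0.05; the F test covered the 4 later times. "Called", "rose", "fell" and "passed" refer to that threshold.

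It was checked whether replicate pairs match between groups. Deviations between the 2 pairs correlated at 0.533 to 0.776 between times of a genotype (12 pairs of groups) and at -0.0116 to 0.412 between genotypes (16), so the pairs are matched across times within a genotype, a pairing that comes from the data and the replicate numbers. The fit with that block is given where it changes calls; for genotype differences it treats the offset between the pairs of a genotype as fixed, and its p-values are then too small.

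Members and lists were chosen with earlier results of these data known. Named genes were Hspa5, Hsp90b1, Hyou1, Calr, Xbp1, Herpud1, Serpinh1, Sdf2l1, Creld2 and Dnajb9, the 6 highest and 6 lowest members by genotype, the 4 highest and 4 lowest at each time and in each change, up to 4 called genes of each other list, and Akt1; a part of these is reported, and others that are named where a count of calls is spelled out were chosen after their values were seen. Promoter sequences are RefSeq's. The alternatives tried were offsets of 8 and 128, quantile normalization, the mean of all probe sets, no filter on low signal, all arrays as replicates, a random pair effect, blocks, and leaving out arrays or pairs.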

Additional observations from a re-analysis of the deposited data

Results flagged for a closer look

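Each member was looked at in each group of 4 arrays for an array whose gap to its nearest neighbour took up most of the range of the group (Dixon's criterion). Of 264 such groups, 10 had 1. Chance alone marks about 1 group in 20 when the 4 arrays are independent, which the arrays of a pair are not. The count therefore cannot be set against that rate. In PKBa-/- cells, Pdia3 was high on replicate 4 at time 24 (4143, against 3814 to 3843 on the other 3 arrays) and Edem1 was low on that array (390.0 against 479.8 to 497.8). Dnajc3 was high on replicate 4 at time 48 (579.5 against 515.0 to 524.9), and Manf was low on it (1599 against 1849 to 1893). Sel1l was high on replicate 4 at time 6 (547.4 against 509.5 to 515.9). In wild type cells, replicate 3 at time 6 was high for Hspa5 (8964 against 7861 to 8018) and Txndc5 (3009 against 2675 to 2723). Pdia4 was high on replicate 1 at time 6 (595.4 against 489.9 to 504.9). Hyou1 was low on replicate 4 at time 48 (538.0 against 725.8 to 747.8) and Herpud1 on replicate 2 (431.3 against 467.3 to 469.8). All 5 cases in PKBa-/- cells were on replicate 4.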

How the results depend on the processing

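The number of pair averages sets the precision: with 2 per group, counts of members past the threshold moved with the way replicates were treated, while all 57 single-gene calls, which covered 22 members, kept their direction under every alternative run. Those calls held in 44 under the mean of all probe sets, 49 without a filter, 52 with the smaller offset and 55 to 57 under the other alternatives on all samples. On leaving out a pair, 697 values kept the call and 215 lost it, and on leaving out an array 1937 and 115. Within replicates 1 and 2 alone, 6 of the values differed from the reported one by more than 1 SE, and within replicates 3 and 4 alone 8 did, with no test. With all 36 arrays as replicates, a fit that takes the arrays of a pair as independent, counts of members rose to 21 for the genotype difference averaged over the times and to 13, 7, 10, 15 and 15 at times 0, 2, 6, 24 and 48. Calls over all genes rose as well in that fit, for the genotype difference at time 2 from 5.78% to 23.5%. A larger count is therefore not by itself a result about the members. The PKBa-/- counts were 3, 17, 7 and 9 at times 2, 6, 24 and 48 against time 0 and 21 at time 24 against time 6, and in wild type cells 15, 10 and 13 at times 6, 24 and 48 and 23 at time 24 against time 6. For the difference of changes they were 1, 2 and 4 at times 6, 24 and 48, and 4 for the F test. With the pair as a random block, counts were 2, 1 and 10 for the genotype difference at times 0, 2 and 48; 9 and 1 in PKBa-/- cells at times 6 and 48; and 9 and 4 in wild type cells at times 6 and 48, and 13 at time 24 against time 6. With the replicate pair within genotype as a block, they were 22 for the averaged genotype difference, 10, 4, 8, 16 and 13 at times 0, 2, 6, 24 and 48, 15, 8, 6 and 22 in PKBa-/- cells and 15, 9, 10 and 20 in wild type cells (times 6, 24 and 48 against time 0, and 24 against 6), and 1 each for the difference of changes at times 24 and 48. With a replicate block common to both genotypes they were 5, 2, 6, 12 and 11 for the genotype at times 0, 2, 6, 24 and 48, 8, 5, 2 and 19 in PKBa-/- cells and 10, 5, 6 and 18 in wild type cells. The blocks moved no other count by over 1.5 times. The smaller offset (8) left 0 members in PKBa-/- cells at time 2, and the larger offset gave 2 for the genotype at time 0. Without a filter on low signal, 1 passed in wild type cells at time 24 against time 0. The mean of all probe sets gave 3 and 1 for the genotype at times 0 and 6, 0 and 6 in PKBa-/- cells at times 2 and 6, and 4 in wild type cells at time 48. Quantile normalization gave 3 and 8 for the genotype at times 0 and 48, 6 and 1 in PKBa-/- cells at times 6 and 48, and 7, 1 and 11 in wild type cells at times 6 and 48 and for time 24 against time 6. On leaving out each array or pair, counts ran from 10 to 14 for the averaged genotype difference, from 0 to 3, 0 to 1, 0 to 3, 2 to 6 and 1 to 7 at times 0, 2, 6, 24 and 48, and were 0 throughout for the differences of changes and the F test. The PKBa-/- counts ran from 0 to 1, 1 to 5, 0 to 2 and 0 to 1 at times 2, 6, 24 and 48, and from 4 to 14 for time 24 against time 6. The wild type counts were 0 at time 2, ran from 0 to 6, 0 to 2 and 0 to 2 at times 6, 24 and 48, and from 0 to 9 for time 24 against time 6. Where a left-out pair leaves 1 average in a group, that average is assumed to vary like the other groups. The cause of these differences was not tested.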
